A study of Mus musculus with 4 samples.

Results

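Interferon-stimulated genes are the genes that a cell switches on after an interferon has bound its receptor. A list of 49 mouse genes of this kind, chosen by symbol, was followed through 4 single-cell RNA-seq libraries of liver leukocytes. Of the 49 genes, 48 had values among the 32285 genes measured, and Mx1 was not analysed here. By role, the list holds 24 antiviral effectors, 7 sensors of foreign or misplaced nucleic acid, 5 transcription factors and feedback regulators, and 13 interferon-inducible GTPases. Type I interferons act through Ifnar1 and Ifnar2, the kinases Jak1 and Tyk2, and a complex with Stat2 and Irf9 that binds the interferon-stimulated response element (ISRE), whereas interferon-gamma acts through Ifngr1 and Ifngr2 and, at its target genes, the gamma-activated site (GAS). Many of the genes answer to both kinds of interferon, and in the liver they are best known for restricting viruses and intracellular pathogens. The microRNA miR-146a, which is induced downstream of NF-kappaB, is known to restrain innate immune signalling through the adaptors Traf6 and Irak1.

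All cells came from livers of female mice of the C57BL/6 strain and were sorted by FACS for CD45, the surface protein that marks leukocytes, before 10x Genomics 5′ v2 libraries were made. The WT young group was wild type, about 8 weeks old and untreated. The WT DEN, KO DEN and DKO DEN groups were labelled as 36 weeks old and differed in genotype: wild type, miR146-/- and miR146-/- Ccl5-/-. Mice of these 3 groups had received 25 mg/kg of the liver carcinogen diethylnitrosamine (DEN) into the peritoneum at day 14 of life, and from weaning at day 21 they ate a high-fat, choline-deficient diet (CDHFD) until the livers were taken. Each group had 1 library, and the number of mice in a library was not stated. With 1 library per group no difference has a replicate check and none was tested. Every interval given is an exact 95% interval of counting error only, Poisson for counts and binomial for shares. Age, DEN and diet cannot be told apart in the comparison of WT DEN with WT young.

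Ccl5, the gene deleted in 1 of the genotypes (ENSMUSG00000035042), was looked at first as a check of the labels. Its level was 6174 CPM (UMIs of the gene per 1000000 UMIs of the library) in WT young, 12544 CPM in WT DEN and 12496 CPM in KO DEN, against 65.4 CPM in DKO DEN. The library labelled miR146-/- Ccl5-/- was thus the only low one of the 4. No gene with a value reads out miR-146a itself, so that deletion could not be checked in the same way. Ptprc, which encodes CD45, stood at 1088, 980, 1035 and 1065 CPM in WT young, WT DEN, KO DEN and DKO DEN. RNA of cells that the sort should remove was present at low levels: the 6 hepatocyte genes, led by Alb, summed to 30.7, 25.3, 14.4 and 18.6 CPM, the 5 endothelial genes, led by Pecam1, to 77.8, 64.1, 88.6 and 107 CPM, the 4 stellate cell genes, led by Reln, to 1.00, 0.962, 0.906 and 0.9303 CPM, and the 4 haemoglobin genes, led by Hbb-bs, to 251, 134, 365 and 246 CPM, in the same order of groups. None of these 19 marker genes was at 0, and their part in the results was not tested.

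After cells with fewer than 600 or more than 6000 detected genes or over 5% mitochondrial UMIs were left out, 10283, 8329, 7824 and 9850 cells were kept in WT young, WT DEN, KO DEN and DKO DEN. They held 83882711, 84158257, 79464882 and 96747482 UMIs, with a median per cell of 6782, 8210, 7910 and 7558. Between 109 and 150 cell barcodes were shared by any pair of libraries. The kept cells that carried a barcode also seen in another library numbered 362, 347, 321 and 367, or 3.52%, 4.17%, 4.10% and 3.73% of the cells. Leaving them out was tried for the sums over all cells, the means and sums by class and the 5 highest and 5 lowest members of each comparison, and of these it turned the direction of the sum in NK cells in KO DEN over WT DEN, from 0.01 to -0.01.

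Interferons are known to act through short sequences in promoters, so the letters themselves are shown for some of the members. Of the 48 measured genes, 37 matched a RefSeq promoter of the GRCm38.p6 build, a window of 250 bases before to 50 bases after the start of the gene. The ISRE-like core GAAANNGAA, searched on both strands, was found in 25 of the 37 (67.6%), against 2638 of 27025 genes (9.76%). The GAS-like motif TTCNNNGAA, which reads the same on both strands, was found in 13 of the 37 (35.1%), against 2582 of all genes (9.55%). The lines give the 150 bases before the start, 5′ to 3′ on the strand of the gene, with every match in capitals; in the Ifit1 and Rsad2 lines the cores lie on the other strand and so begin with TTC. Isg15 (chr4:156200819-156200968, minus strand), Ifit1 (chr19:34640739-34640888, plus strand) and Rsad2 (chr12:26456453-26456602, minus strand) are shown as effectors with ISRE-like cores. Irf1 (chr11:53769864-53770013, plus strand) is shown as a factor with 2 windows, of which that shown held only the GAS-like motif.
Isg15: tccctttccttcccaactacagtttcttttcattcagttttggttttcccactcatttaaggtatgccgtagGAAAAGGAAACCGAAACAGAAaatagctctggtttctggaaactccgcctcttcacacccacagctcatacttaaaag
Ifit1: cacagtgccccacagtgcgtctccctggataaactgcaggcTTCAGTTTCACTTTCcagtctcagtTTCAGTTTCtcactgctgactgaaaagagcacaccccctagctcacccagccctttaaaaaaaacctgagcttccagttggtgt
Rsad2: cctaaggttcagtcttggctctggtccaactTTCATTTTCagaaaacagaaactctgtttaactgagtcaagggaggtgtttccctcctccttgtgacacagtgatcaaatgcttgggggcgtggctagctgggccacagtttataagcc
Irf1: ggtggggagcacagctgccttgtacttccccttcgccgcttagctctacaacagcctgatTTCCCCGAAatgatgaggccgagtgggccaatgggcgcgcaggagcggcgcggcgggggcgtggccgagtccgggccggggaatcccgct
The 3 cores of Isg15 overlap, which makes 1 run of capitals, and they start 78, 72 and 66 bases before the gene. In Ifit1 a pair of overlapping cores starts 109 and 103 bases before the gene and a further core starts 84 bases before it.

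Some GTPase genes on chromosome 11 had an arrangement, noticed after the sequences were seen, in which a GAS-like motif starts 11 bases before an ISRE-like core. It was present in 4 of the 37 members and in 8 of the 27025 genes (0.0296%), and the 4 members were Tgtp1, Tgtp2, Irgm2 and Igtp. The other GTPase members on chromosome 11 lacked it: the window of Irgm1 held ISRE-like cores only, and that of Ifi47 neither motif. The lines show Tgtp1 (chr11:48992247-48992396, minus strand), Tgtp2 (chr11:49064213-49064362, minus strand), Irgm2 (chr11:58214827-58214976, plus strand) and Igtp (chr11:58199406-58199555, plus strand), and for contrast Ifi208 (chr1:173673515-173673664, plus strand), a sensor gene with a single core. The starts are those of RefSeq. In the annotation that gave the gene positions, Tgtp1 and Irgm2 begin farther upstream, so that their lines lie inside those gene models, and the line of Ifit1 overlaps the first bases of its model. The last line is the mature miR-146a-5p, the molecule that the KO and DKO genotypes lack, with its seed (bases 2 to 8) in capitals.
Tgtp1: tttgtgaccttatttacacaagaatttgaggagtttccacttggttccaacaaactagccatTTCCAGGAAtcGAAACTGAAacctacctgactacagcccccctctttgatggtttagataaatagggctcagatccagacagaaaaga
Tgtp2: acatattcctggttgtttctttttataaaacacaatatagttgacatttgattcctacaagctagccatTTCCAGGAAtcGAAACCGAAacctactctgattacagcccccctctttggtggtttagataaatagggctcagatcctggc
Irgm2: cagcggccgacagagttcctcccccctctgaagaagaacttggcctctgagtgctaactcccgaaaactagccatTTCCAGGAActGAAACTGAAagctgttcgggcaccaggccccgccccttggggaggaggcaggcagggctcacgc
Igtp: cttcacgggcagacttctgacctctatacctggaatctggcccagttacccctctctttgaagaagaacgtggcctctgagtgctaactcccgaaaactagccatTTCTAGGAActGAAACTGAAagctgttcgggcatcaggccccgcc
Ifi208: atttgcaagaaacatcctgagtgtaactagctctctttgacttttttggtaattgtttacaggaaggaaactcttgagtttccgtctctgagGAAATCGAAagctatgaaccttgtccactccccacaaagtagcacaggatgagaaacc
mmu-miR-146a-5p: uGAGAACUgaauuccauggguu
By role, the ISRE-like core was found in 11 of 19 antiviral effectors, 4 of 4 sensors, 1 of 4 transcription factors and feedback regulators, and 9 of 10 GTPases. The GAS-like motif was found in 6 of 19, 0 of 4, 1 of 4 and 6 of 10. Both motifs were found in 8 of the 37 genes (21.6%, against 1.42% of all genes), and neither in 7 (18.9%, against 82.1%), among them Irf7, Irf9 and Ifi47. Some genes had more than 1 window, and a match in any of them counted for the gene. A match describes letters in a window and shows no binding.

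Across all kept cells the 48 genes together took up between 0.322% and 0.403% of the UMIs of a library. Their summed level was 3638 CPM (3625 to 3651) in WT young, 4033 CPM (4019 to 4046) in WT DEN, 3658 CPM (3644 to 3671) in KO DEN and 3221 CPM (3210 to 3232) in DKO DEN. WT DEN was thus the highest library and DKO DEN the lowest, and each of these intervals was separate from its neighbours except those of WT young and KO DEN, which overlapped. A UMI counts an mRNA molecule once whatever its length, so CPM was not divided by gene length when levels of different genes were set side by side. The span between genes was wide: in WT young it ran from 3.53 CPM for Ifi44 to 427 CPM for Ifi27l2a, and the 12 most abundant members held 61.8%, 64.3%, 66.2% and 65.4% of the members' UMIs in WT young, WT DEN, KO DEN and DKO DEN.

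**Figure D1:**
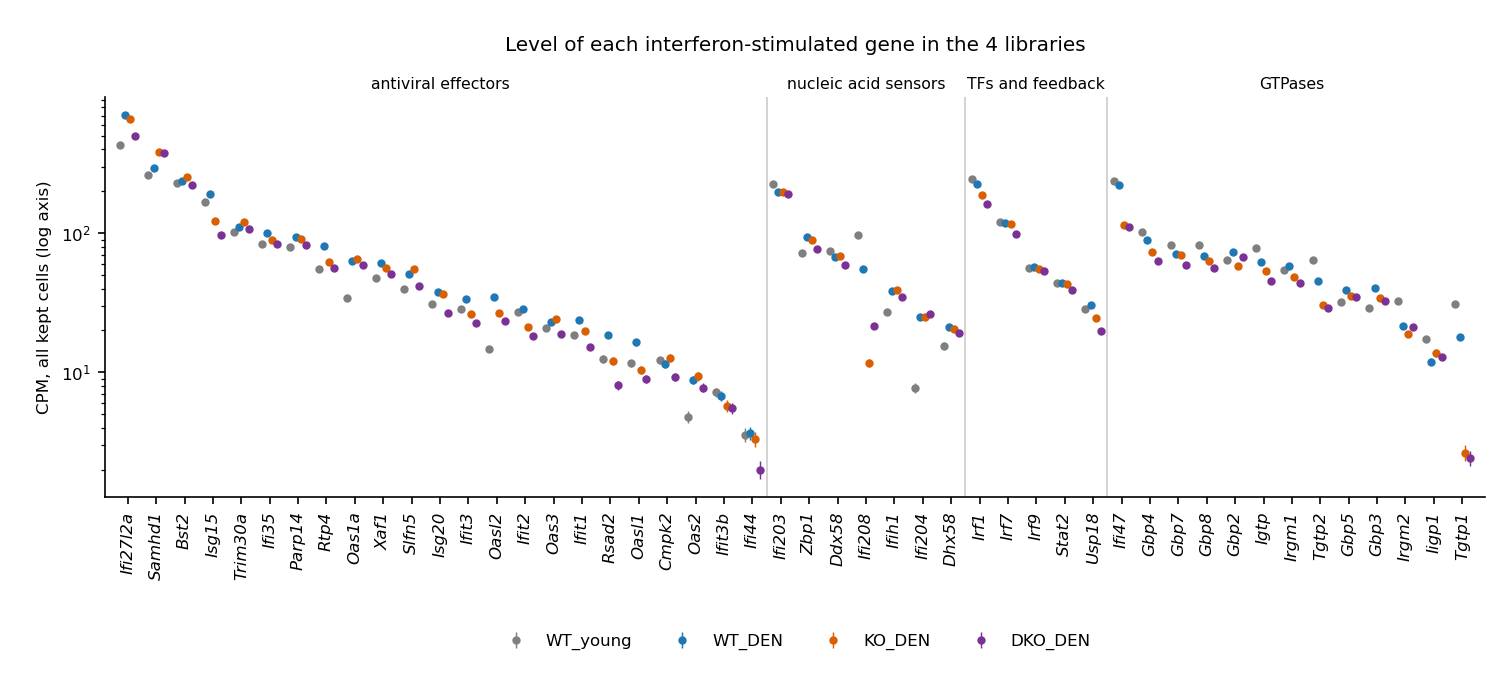
Level of each of the 48 measured interferon-stimulated genes, in CPM on a log axis, in the 4 libraries (1 point per library, with bars for the exact 95% Poisson interval), grouped by role. Ifi27l2a, Samhd1, Bst2, Irf1, Ifi203 and Ifi47 are the most abundant, and Tgtp1 and Ifi208 show the widest gap between the wild-type libraries and the miR146-/- ones.

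The plot of levels by gene shows that for most members the 4 points lie close together on the log axis. Ratios between libraries are given as log2 values, and a gene was called higher or lower when it had at least 50 UMIs over both libraries and differed by at least 1.5-fold. All 48 members met the minimum in each of the 3 comparisons. WT DEN over WT young addresses the combined change with age, carcinogen and diet, KO DEN over WT DEN the loss of miR-146a in treated mice, and DKO DEN over KO DEN the further loss of Ccl5. The first pair of comparisons shares the WT DEN library and the last pair the KO DEN library, so the values of the comparisons are set side by side and not related to each other.

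Over all cells the summed members were 0.15 higher on the log2 scale in WT DEN than in WT young (0.14 to 0.16). Of the 48 genes, 5 were called higher and 2 lower, against 10.1% of 14886 genes higher and 8.00% lower. The median log2 ratio was 0.13 for the members and -0.04 for all genes tested. Without Ifi27l2a, the most abundant member, the sum stood at 0.052. At 2-fold 2 of the 48 were higher and 0 lower, against 4.98% and 2.996% of genes. Without interferon-high cells, which are defined further on, 10 were higher and 3 lower, against 10.0% and 8.05% of 14830 genes. In KO DEN over WT DEN the sum was -0.14 (-0.15 to -0.13), with 0 members called higher and 6 lower, against 7.88% and 7.40% of 14910 genes; at 2-fold 0 were higher and 2 lower, against 3.67% and 3.18%. The members' median was -0.13 and that of all genes -0.01, and 37 of the 48 ratios were below 0 (36 with TMM scaling, where Ifi204 turned). Without the 11 members on chromosome 11, which holds both deleted genes, this sum was -0.079. In DKO DEN over KO DEN the sum was -0.18 (-0.19 to -0.18), with 1 member called higher and 1 lower, against 4.04% and 4.16% of 14959 genes. At 2-fold both counts were 0, against 1.94% and 1.45%. Without interferon-high cells 2 were higher and 1 lower, against 4.10% and 4.24% of 14937 genes, and with no cell filter 1 and 2, against 4.03% and 4.27% of 15122. Here 44 of the 48 ratios were below 0, and 40 with TMM scaling, where Samhd1, Ifi203, Gbp5 and Ifi47 turned; the medians were -0.17 for the members and -0.04 for all genes.

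**Figure D2:**
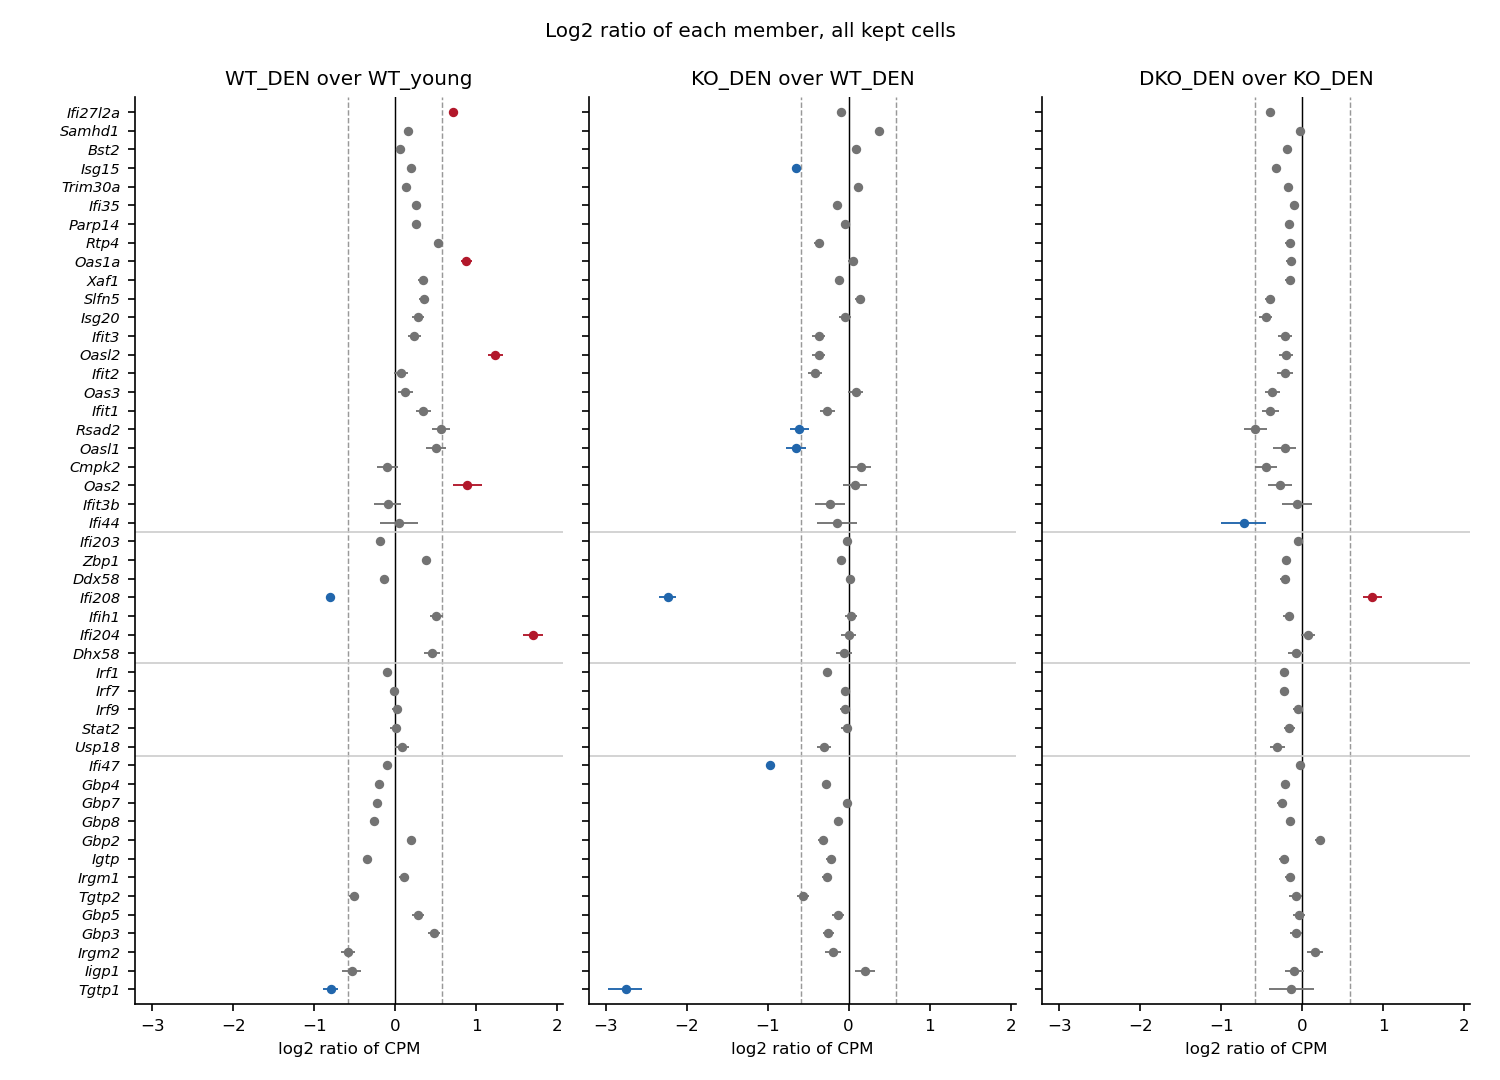
Log2 ratio of each measured member in the 3 comparisons over all kept cells, with red for higher, blue for lower and dashed lines at 1.5-fold. Most members lie between the dashed lines in each comparison, and Tgtp1 and Ifi208 lie far below them in KO DEN over WT DEN.

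The antiviral effectors, which block or degrade viral RNA and proteins, made up the largest role by level. Their 23 measured genes summed to 1719, 2233, 2164 and 1841 CPM in WT young, WT DEN, KO DEN and DKO DEN, so that WT young was the lowest library. The log2 ratios of these sums were 0.38 for WT DEN over WT young, -0.05 for KO DEN over WT DEN and -0.23 for DKO DEN over KO DEN. Of the 23, 4 were called higher and 0 lower in the first comparison, 0 and 3 in the second, and 0 and 1 in the third, beside 10.1% and 8.00%, 7.88% and 7.40%, and 4.04% and 4.16% of all genes tested.

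Ifi27l2a (ENSMUSG00000079017), which encodes a small hydrophobic protein, had 427, 703, 656 and 498 CPM in WT young, WT DEN, KO DEN and DKO DEN, and it alone held 11.7%, 17.4%, 17.9% and 15.5% of the members' UMIs. It was called higher in WT DEN than in WT young (log2 0.72), and its other ratios were -0.10 and -0.40. Oasl2, a 2'-5' oligoadenylate synthetase-like protein, had 14.7, 34.7, 26.8 and 23.4 CPM and a log2 ratio of 1.24 in WT DEN over WT young. The other members called higher there were Oas2, with 4.76, 8.82, 9.34 and 7.75 CPM (0.89), and Oas1a, with 34.1, 62.6, 64.8 and 58.6 CPM (0.88). Both encode synthetases that activate the antiviral nuclease RNase L. Taken as a family, grouped by name after the values were seen, the 5 Oas genes summed to 86.1, 145, 136 and 118 CPM, with WT young again the lowest library, and log2 ratios of 0.76, -0.10 and -0.21. All 5 were above 0 in WT DEN over WT young, with TMM scaling too.

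Isg15 (ENSMUSG00000035692), a ubiquitin-like modifier, had 167, 191, 122 and 97.6 CPM, and was called lower in KO DEN than in WT DEN (log2 -0.65). Its ratios in the other comparisons were 0.19 and -0.32. Oasl1, an inhibitor of Irf7 translation, was likewise called lower, from 16.4 to 10.4 CPM (-0.65). Rsad2 (viperin), an enzyme that makes a chain-terminating nucleotide, was the remaining effector called lower, with 12.4, 18.4, 12.1 and 8.08 CPM and a log2 ratio of -0.61; it ranked just outside the 5 lowest and is named after its value was seen. Between DKO DEN and KO DEN it stood at -0.58, short of the call. Its chromosomal neighbour Cmpk2, a mitochondrial nucleotide kinase, had 12.2, 11.4, 12.7 and 9.31 CPM with ratios of -0.10, 0.15 and -0.45. The 4 Ifit genes, which bind viral RNA, summed to 81.5, 92.7, 73.1 and 61.5 CPM, with log2 ratios of 0.19, -0.34 and -0.25.

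Some abundant effectors followed another course. Samhd1, a dNTP hydrolase that starves retroviruses of nucleotides, had 264, 295, 384 and 377 CPM, and its log2 ratio of 0.38 in KO DEN over WT DEN was the highest of all members there, short of the call. Between DKO DEN and KO DEN Samhd1 stood at -0.03, and at 0.03 with TMM scaling. Bst2 (tetherin), which holds budding virions on the cell surface, had 228, 237, 252 and 222 CPM. Trim30a, a ubiquitin ligase that dampens NF-kappaB signalling, had 101, 112, 121 and 108 CPM, Ifi35 had 83.1, 99.6, 89.98 and 83.8 CPM, and Parp14, an ADP-ribosyltransferase, had 79.1, 94.3, 91.4 and 81.7 CPM. These 4 genes differed by less than 1.5-fold in every comparison. Slfn5, which lies 0.561 Mb from Ccl5, had 39.5, 50.5, 55.4 and 42.1 CPM with ratios of 0.36, 0.13 and -0.40, and Isg20, an exonuclease, had 30.9, 37.6, 36.4 and 26.6 CPM with ratios of 0.28, -0.05 and -0.45. Ifi44 was the 1 member called lower in DKO DEN than in KO DEN, at 1.99 against 3.30 CPM (-0.72).

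The 7 sensors summed to 519, 501, 450 and 428 CPM, with log2 ratios of -0.05, -0.15 and -0.07. Within this role a pair of Pyhin genes on chromosome 1 had the highest and the lowest ratio in WT DEN over WT young. Ifi204, a DNA sensor of the Pyhin family, had 7.71, 25.1, 25.1 and 26.4 CPM and the highest ratio of all members in WT DEN over WT young, 1.70 (1.57 to 1.83). Within the cell classes described further on it reached the minimum in 2, and was short of the call in both: patrolling monocytes (0.48) and cDC1 (0.53). Its mean level was highest in patrolling monocytes, which made up 0.904% of kept cells in WT young and 2.63% in WT DEN. The part of the cell mix in the ratio over all cells was not tested. Of the Pyhin genes nearby that are not on the list, looked at after the values were seen, 2 of 7 were also called higher in WT DEN, against 10.1% of all genes tested. They were Ifi207 with 19.3 CPM in WT young and 48.5 CPM in WT DEN (1.33) and Ifi211 with 18.7 and 35.0 CPM (0.90). The other 5 were below 0, from Mndal (-0.03) to Ifi213 (-0.42). Ifi208 (ENSMUSG00000066677, chr1:173673675-173698395), another Pyhin gene, had 96.6, 55.2, 11.7 and 21.4 CPM. It was lowest in KO DEN and highest in WT young. Its log2 ratios were -0.81 in WT DEN over WT young, -2.23 (-2.34 to -2.13) in KO DEN over WT DEN, which is 4.70-fold lower, and 0.87 (0.76 to 0.98) in DKO DEN over KO DEN, which is 1.82-fold higher. It was called in all 3 comparisons, and it was the 1 member called higher in DKO DEN than in KO DEN. Among the 9 genes tested within 200 kb of Ifi208, it was the 1 gene called lower in KO DEN than in WT DEN, against 7.40% of all genes tested. Reads of similar Pyhin genes can be split between them, so the single values are uncertain, but whether this occurs between Ifi204 and Ifi208 was not tested. Together they had 104, 80.3, 36.8 and 47.8 CPM. The log2 ratios of this sum were -0.38, -1.12 and 0.38, so that it passed the call in KO DEN over WT DEN alone. The sum joins genes of different cells: the mean level of Ifi204 was highest in patrolling monocytes (85.1 CPM) and that of Ifi208 in PD-1- non-naive CD8 T cells (86.6 CPM). Ifi203, the other Pyhin gene of the list, had 225, 199, 197 and 190 CPM, with ratios between -0.18 and -0.02. Zbp1, the sensor of Z-form nucleic acid that can trigger necroptosis, had 72.5, 94.5, 88.8 and 77.6 CPM, with ratios of 0.38, -0.09 and -0.20.

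The 5 transcription factors and feedback regulators summed to 492, 477, 428 and 372 CPM, with log2 ratios of -0.04, -0.16 and -0.20, and none of them was called in any comparison. Irf1, a factor that interferon-gamma induces, had 243, 227, 189 and 161 CPM. Irf7, which drives the second wave of type I interferon, had 120, 119, 116 and 99.2 CPM. The largest ratio of either in size was -0.26, that of Irf1 in KO DEN over WT DEN.

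The 13 GTPases, which attack the vacuoles of intracellular pathogens, summed to 908, 821, 616 and 579 CPM and were highest in WT young. Their log2 ratios were -0.14, -0.42 and -0.09. The 6 guanylate-binding proteins (Gbp genes) had 392, 381, 334 and 313 CPM, whereas the 7 immunity-related GTPases, including Ifi47, had 516, 440, 282 and 266 CPM. The log2 ratio in KO DEN over WT DEN was -0.19 for the Gbp genes and -0.64 for the immunity-related GTPases, with 6 of 6 and 6 of 7 genes below 0, with TMM scaling too. The lower ratio of the latter rests on Tgtp1, Tgtp2 and Ifi47: the other 4 immunity-related GTPases, summed after the values were seen, had 182, 154, 135 and 124 CPM and a ratio of -0.19, that of the Gbp genes. Tgtp1 (ENSMUSG00000078922, chr11:48985327-48994172) had 31.0, 17.8, 2.64 and 2.41 CPM. It was low in both libraries that lack miR-146a. Its ratio of -2.75 (-2.97 to -2.55), or 6.74-fold lower, was the lowest of all members in KO DEN over WT DEN, and its ratios in the other comparisons were -0.80, a call, and -0.13. Ifi47 (ENSMUSG00000078920) had 238, 223, 114 and 111 CPM and was called lower in KO DEN than in WT DEN (-0.97). Tgtp2, a near-identical copy of Tgtp1, had 64.4, 45.4, 30.7 and 29.0 CPM, with ratios of -0.51, -0.56 and -0.08. Since reads may be split between the copies, their sum was also taken: it was 95.4, 63.2, 33.4 and 31.5 CPM, with a log2 ratio of -0.92 in KO DEN over WT DEN. Irgm2, which overlaps Igtp, had 32.3, 21.6, 18.9 and 21.1 CPM with ratios of -0.58, -0.19 and 0.16, and Iigp1 had 17.3, 11.9, 13.8 and 12.9 CPM with ratios of -0.54, 0.21 and -0.10. Gbp2 had 63.6, 72.9, 58.3 and 67.6 CPM with ratios of 0.20, -0.32 and 0.21.

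Tgtp1, Tgtp2 and Ifi47 lie near each other on chromosome 11, 5.61, 5.68 and 5.70 Mb from Mir146, the deleted microRNA gene. Of the 14 genes tested within 200 kb of Tgtp1, 4 were called lower in KO DEN than in WT DEN, against 7.40% of 14910 genes. They were Tgtp1, which set the window, Ifi47, Olfr56 (-2.17), whose gene model spans both, and 9930111J21Rik2 (-1.53). Other genes of the same stretch did not differ to that extent, with Rack1 at -0.10, Gm12185, which overlaps Tgtp1, at 0.06 and Irgm1 at -0.26. These neighbours were looked at after the values of Tgtp1 had been seen. All mice were labelled C57BL/6, but the origin of the chromosome segment around Mir146 was not tested, so for these genes loss of miR-146a and sequence linked to the deleted gene cannot be told apart.

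The genes that bring interferon to the cell were taken from a list of 47, of which 46 had values (Cxcl11 was not analysed here) and 36 had at least 50 UMIs. Ifng was the only 1 of 11 ligands that reached this count. It had 187, 131, 76.7 and 53.7 CPM in WT young, WT DEN, KO DEN and DKO DEN, highest in WT young and lowest in DKO DEN, and was called lower in KO DEN than in WT DEN (log2 -0.77). In cells gated as NK cells Ifng had 430, 338, 184 and 169 CPM, and in ILC1 218, 209, 84.1 and 79.8 CPM. PD-1+ CD8 T cells did not share the lower level in KO DEN, with 232, 167, 182 and 116 CPM. Ifnb1 had 9 UMIs over the 4 libraries, Ifna2 had 2 and Ifnk 14, and the other 7 ligands were at 0.

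Among the 35 pathway genes with at least 50 UMIs over both libraries, 4 were called higher and 1 lower in WT DEN than in WT young, against 10.1% and 8.00% of all genes tested. The higher ones were Ifngr2 (35.0 to 55.8 CPM), the RNA sensor Tlr7 (log2 0.64), and the chemokines Cxcl9 (22.5 to 37.7 CPM) and Cxcl10 (42.6 to 74.5 CPM), which recruit T cells. The lower one was the sensor Tlr3 (9.64 to 4.33 CPM). In KO DEN over WT DEN 2 of 36 were called higher, Tlr7 (0.67) and the exonuclease Trex1 (1.06, from 19 and 38 UMIs), and 4 lower, against 7.88% and 7.40% of all genes: Ifng, Irf4 (30.7 to 19.4 CPM), Cxcl9 (37.7 to 21.0 CPM) and Cxcl10 (74.5 to 42.7 CPM). For DKO DEN over KO DEN the interferon-lambda receptor Ifnlr1 (1.54 to 3.39 CPM) and Cxcl9 (21.0 to 48.4 CPM) were called higher and Trex1 (-0.72, from 38 and 28 UMIs) lower, 2 and 1 of 36, against 4.04% and 4.16% of all genes.

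A sum over all cells also moves with the mix of cells, so cells were sorted by marker genes into 16 classes with gates on raw UMIs. Cells with no gate numbered 4454, 3360, 2216 and 3145 in WT young, WT DEN, KO DEN and DKO DEN, and those with more than 1 gate, which stayed unassigned, 22, 32, 27 and 43. Of 64 markers not used in the gates, 63 were higher in their own class than in the other cells in all 4 libraries, the exception being Il7r in ILC1. Classes were compared where both libraries had at least 50 cells, which left 11 classes for WT DEN over WT young, 13 for KO DEN over WT DEN and 14 for DKO DEN over KO DEN. The classes described in turn are the PD-1+ CD8 T cells and those in which at least 30% of the members tested were called in 1 direction. The unweighted mean over classes of the log2 ratio of the summed members was 0.11, -0.21 and -0.15 in these comparisons. The first of these means was 0.0054 with strict gates, which left out cDC2, and 0.065 without interferon-high cells, and the second was -0.15 with strict gates, which left out classical monocytes. The sum was above 0 in 7 classes and below it in 4 in the first comparison, 3 and 10 in the second, and 3 and 11 in the third. Counting intervals excluded 0 upwards in 6, 1 and 2 classes and downwards in 3, 10 and 11.

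**Figure D3:**
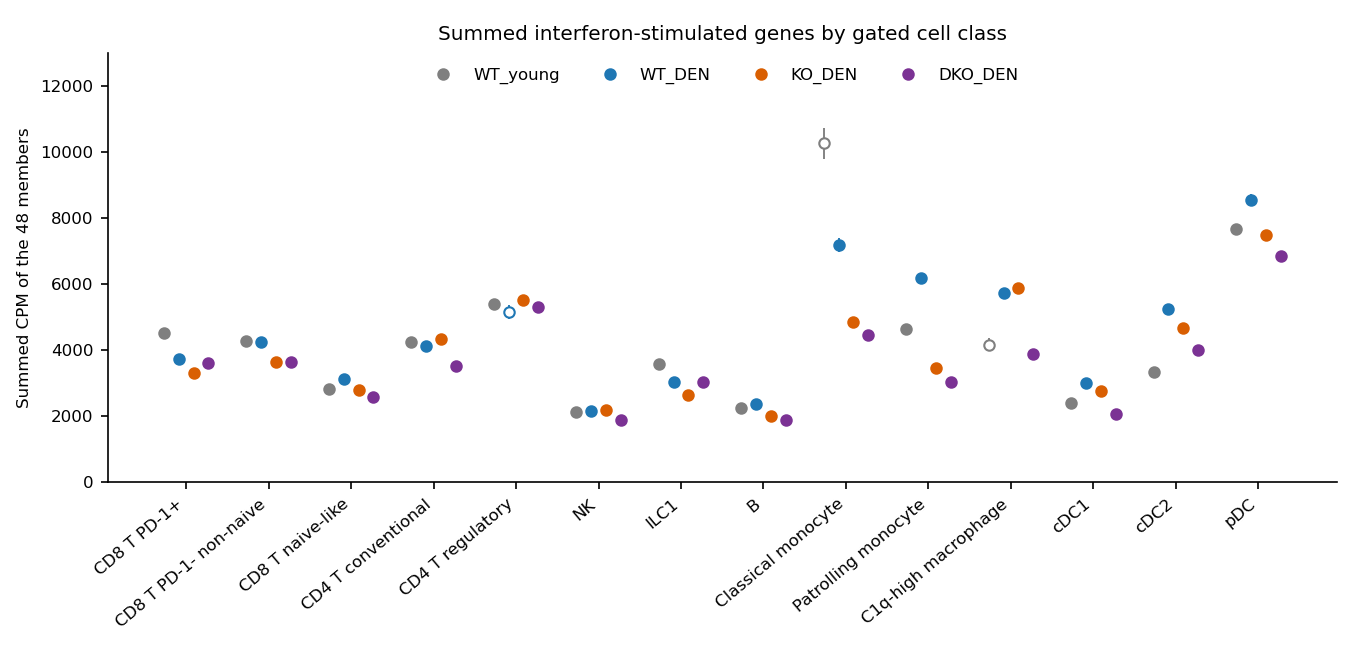
Summed level of the 48 members, in CPM, by cell class and library, with open symbols for classes of under 50 cells. Patrolling monocytes of WT DEN stand at 6170 CPM, above the other 3 libraries, and plasmacytoid dendritic cells are high in all 4.

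The plot of summed levels by class shows a wide range between cell types. Among classes with enough cells in all 4 libraries, plasmacytoid dendritic cells (pDC), the professional producers of type I interferon, had the highest sums, 7651, 8537, 7488 and 6846 CPM in WT young, WT DEN, KO DEN and DKO DEN. NK cells had 2125, 2145, 2164 and 1879 CPM and B cells 2243, 2361, 2005 and 1860 CPM, the lowest of the lymphocytes. Of the 48 members, 14 had their highest mean level in cDC2 (conventional type 2 dendritic cells), but only Oasl2 and Dhx58 were highest there in all 4 libraries. By the same mean a further 8 peaked in pDC (5 of them in all 4 libraries), 7 in patrolling monocytes (2), 6 in PD-1- non-naive CD8 T cells (0) and 5 in ILC1 (4). Of the pDC genes, Bst2 had 4058, 4226, 4177 and 4117 CPM there and Irf7 had 542, 568, 364 and 300 CPM. The 4 in ILC1 were Ddx58 (RIG-I), Ifi203, Gbp4 and Irgm2.

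Patrolling monocytes, the Ly6c2-low monocytes that survey vessel walls, showed the largest difference between genotypes. The class had 93, 219, 823 and 1274 cells in WT young, WT DEN, KO DEN and DKO DEN, and its summed members were at 4639, 6170, 3459 and 3039 CPM. WT DEN was the high library. In KO DEN over WT DEN the sum was -0.83 (-0.86 to -0.81), and 33 of 43 members tested were called lower and 0 higher, against 9.20% of 9286 genes lower and 9.62% higher. The members' median was -0.93 and that of all genes 0.02. The lower members came from every role: 15 of 21 effectors, 4 of 6 sensors, 4 of 5 transcription factors and feedback regulators, and 10 of 11 GTPases. Without interferon-high cells 30 of 43 were lower and the sum was -0.77, against 9.19% of genes. With strict gates 31 of 43 were lower, against 9.05%. In this class the strict gates allowed no UMI of Cd3d, Cd3e, Cd3g, Cd79a or Ms4a1, and genes of other lineages were limited no further. At 2-fold the count was 20 of 43, against 3.48% of genes, and with at least 200 UMIs 24 of 33, against 459 of 6375 genes. Ifng, known as a product of lymphocytes, was at 31.0, 11.01, 1.04 and 0.884 CPM in cells of this class, and it was lower in KO DEN than in WT DEN also in B cells (5.92 and 0.964 CPM) and classical monocytes (18.4 and 1.33 CPM, from 11 and 2 UMIs). Whether this is RNA of other cells, and its part in the result, was not tested.

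The lowest ratios in these monocytes were those of Oasl1, with 14.97, 39.6, 6.95 and 4.62 CPM (-2.51), Ifit2, with 19.2, 59.8, 11.7 and 7.41 CPM (-2.35), and Ifit1, with 9.62, 37.4, 7.68 and 5.58 CPM (-2.28). Without interferon-high cells these ratios were -1.98, -1.38 and -1.05. For each of them WT DEN was the high library of the 4. The highest ratios were those of Samhd1, at 819, 743, 828 and 756 CPM (0.16), Trim30a (-0.42) and Slfn5 (-0.51). Samhd1 was thus nearly level in the class where it was most abundant. Isg15 had 139, 268, 80.7 and 54.3 CPM, Ifi27l2a 1206, 1828, 768 and 567 CPM, and Irf7 203, 187, 114 and 92.5 CPM. The chemokine Cxcl10 followed with 136, 250, 39.7 and 62.5 CPM.

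**Figure D4:**
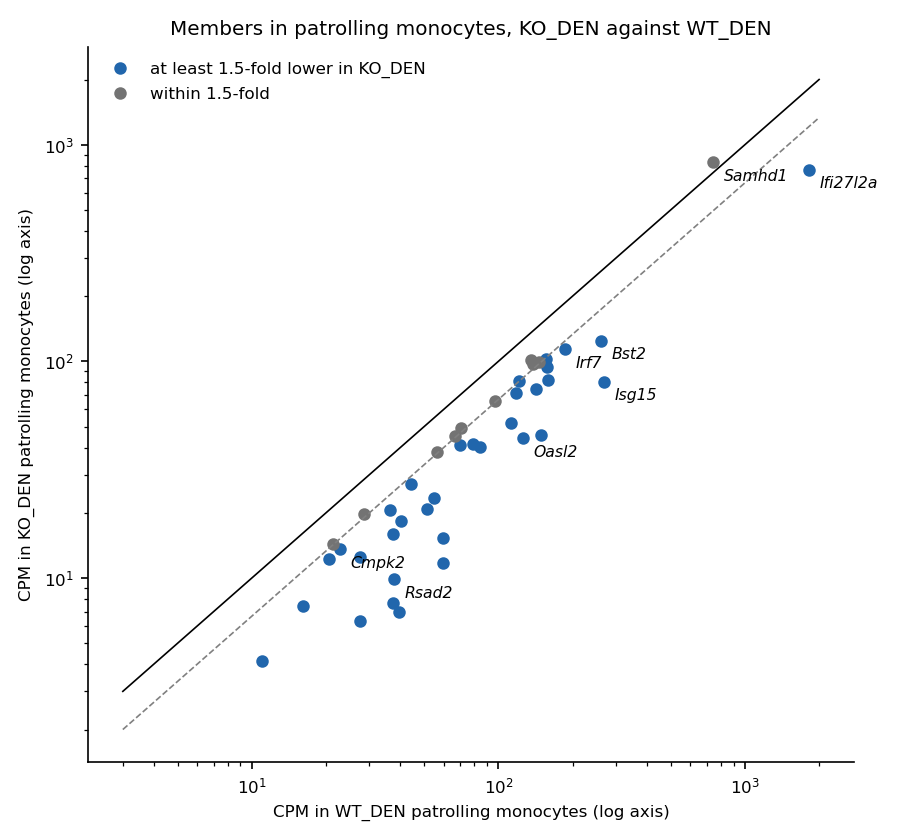
Level of each member with at least 50 UMIs in patrolling monocytes of KO DEN (vertical) against WT DEN (horizontal), in CPM on log axes. The solid line marks equal levels and the dashed line 1.5-fold lower in KO DEN, and 33 of 43 members lie at or below the dashed line.

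The scatter plot of patrolling monocytes shows the members below the line of equal levels along the whole range, except Samhd1, which lies just above it. In WT DEN over WT young 19 of 42 members were called higher and 0 lower in this class, against 7.38% of 6879 genes higher and 9.30% lower, and the sum was 0.41 (0.36 to 0.46). The members' median was 0.52 and that of all genes -0.06, and TMM scaling moved all ratios of this class by 0.12 and gave 24 higher, against 11.1% of genes. At 2-fold the count was 8 of 42, against 2.33%, with at least 200 UMIs 9 of 23, against 5.91%, and without interferon-high cells 15 of 41 were higher and 2 lower, against 7.46% and 9.36%. Of the higher members, 13 were among 21 effectors, led by Ifit1 (1.89), Rsad2 (1.63) and Ifit2 (1.60), which without interferon-high cells had 0.77 (from under 50 UMIs), 0.62 and 0.69, and the lowest ratios were those of Gbp8 (-0.49), Irgm2 (-0.40) and Isg20 (-0.40). In DKO DEN over KO DEN the sum was -0.19. Of the markers of the class that the gate did not use, Nr4a1 was at 1352, 955, 934 and 894 CPM. Spn was at 265, 139, 294 and 251 CPM, Eno3 at 415, 265, 369 and 354 CPM, and Cx3cr1 at 276, 185, 250 and 255 CPM. The last 3 were lowest in WT DEN, and their part in the result was not tested.

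Classical monocytes, the inflammatory monocytes that enter tissue, numbered 53 in WT DEN, 96 in KO DEN and 107 in DKO DEN, with 16 in WT young. Their sums were 7163, 4830 and 4437 CPM in the 3 treated libraries, WT DEN being the highest. In KO DEN over WT DEN 18 of 34 members were called lower and 0 higher, against 13.1% of 5455 genes lower and 14.4% higher, with medians of -0.68 for the members and 0.05 for all genes and a sum of -0.57 (-0.62 to -0.51). At 2-fold 10 of 34 were lower, against 4.95% of genes, and with at least 200 UMIs 8 of 17, against 9.82%. Rsad2 went from 92.2 to 8.63 CPM (-3.38), Ifit3 from 78.8 to 8.63 CPM (-3.15), and Gbp5 had a ratio of -1.91; without interferon-high cells the ratios were -3.77, -2.27 and -2.05, each from under 50 UMIs. On the other side Oas2 had 0.37, Samhd1 0.31 and Slfn5 0.14. Markers of the class that the gate did not use differed too, with F13a1 at 319 CPM in WT DEN and 988 CPM in KO DEN and Chil3 at 783 and 1502 CPM, and their part in the result was not tested.

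B cells, with 697 cells in WT DEN and 464 in KO DEN, went from 2361 to 2005 CPM, a log2 ratio of -0.24. Here 16 of 39 members were called lower and 0 higher, against 7.45% of 9560 genes lower and 4.84% higher, with medians of -0.45 and -0.01, and 8 of 39 were lower at 2-fold, against 3.39% of genes, and 10 of 27 with at least 200 UMIs, against 4.89%. The lower members held 6 of 17 effectors, 1 of 5 sensors, 3 of 5 transcription factors and feedback regulators, and 6 of 12 GTPases. Ifi208 went from 35.2 to 2.65 CPM (-3.67), Ifi47 from 103 to 36.2 CPM (-1.51), and Usp18, the protease that removes Isg15 from proteins and damps Ifnar2, had -1.55. Without interferon-high cells these ratios were -3.48, -1.41 and -0.68. Gbp2 (0.27), Trim30a (0.25) and Stat2 (0.25) had the highest ratios. In DKO DEN over KO DEN the B-cell sum was -0.11, and 0.04 with TMM scaling, which moved all ratios of that class by 0.15.

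Members with low or high ratios over all cells were also followed by class. They were picked on the sum of the same cells, so calls in the same direction by class follow in part from that choice. Of all genes tested in KO DEN over WT DEN, between 3.46% (naive-like CD8 T cells) and 13.1% (classical monocytes) were called lower in a class. In KO DEN over WT DEN, Tgtp1 was called lower in 6 of the 6 classes where it had enough UMIs, Ifi208 in 7 of 7 and Ifi47 in 11 of 13. Over all cells Tgtp1 had 210 UMIs in KO DEN and 1502 in WT DEN, and Ifi208 had 932 and 4646. For this pair a class thus reached the minimum mainly through WT DEN, so their counts left little room for another outcome. Isg15 was called lower in 8 of 13 classes and was below 0 in all 13, and Rsad2 was lower in 7 of 10 and higher in 1. Oasl1 was lower in 5 of 9, Tgtp2 in 5 of 12 and Oasl2 in 5 of 9, whereas Samhd1 was called in 0 of 13. For DKO DEN over KO DEN, Ifi208 was called higher in 6 of 7 classes. Of all genes tested there, between 1.90% (pDC) and 7.36% (C1q-high macrophages) were called higher in a class. Over all cells Ifi208 had 2070 UMIs in DKO DEN and 932 in KO DEN. A class thus reached the minimum mainly through DKO DEN, which left this count less room for another outcome too.

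PD-1+ CD8 T cells, gated on Pdcd1, numbered 352, 1380, 1575 and 1391 in WT young, WT DEN, KO DEN and DKO DEN, and their members summed to 4515, 3727, 3284 and 3598 CPM. WT young was thus the highest library. In WT DEN over WT young the sum was -0.28 (-0.30 to -0.25), and 20 of 45 members were called lower and 1 higher, against 9.57% of 10095 genes lower and 8.18% higher, with medians of -0.39 and -0.03. Without interferon-high cells 12 of 41 were lower and 2 higher, against 9.46% and 8.34% of genes, and the sum was -0.10. At 2-fold 11 of 45 were lower, against 3.55%, and with at least 200 UMIs 13 of 38, against 5.68%. Cmpk2 went from 23.2 to 4.399 CPM (-2.40) and Rsad2 from 14.6 to 3.40 CPM (-2.10), and Ifit3b had -2.17; without interferon-high cells these were -1.84, -0.24 and -1.42, the last pair from under 50 UMIs. The highest ratios were those of Isg20, from 40.4 to 61.9 CPM (0.61, and 1.22 without interferon-high cells), Gbp3 (0.49) and Gbp8 (0.21). Further markers of these cells were higher in WT DEN, with Gzmk at 499 CPM in WT young and 1265 CPM in WT DEN and Nkg7 at 2715 and 5034 CPM, and their part in the result was not tested.

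In the same T cells, KO DEN over WT DEN gave 3 of 45 members higher and 4 lower, against 6.17% of 10746 genes higher and 7.05% lower, with medians of 0.02 and 0.01 and a sum of -0.18. The lowest were Tgtp1, with 28.5, 13.4, 1.69 and 2.18 CPM in the 4 libraries (-2.96), Ifi208, with 147, 64.5, 11.5 and 40.1 CPM (-2.48), and Ifi47, with 316, 283, 129 and 158 CPM (-1.13), and Ifi27l2a, with 707, 707, 402 and 580 CPM, was the remaining call (-0.82). The 3 called higher were Rsad2 (1.30), Ifit3b (1.22) and Ifit3 (0.88). Without interferon-high cells 0 of 44 were higher and 8 lower, against 6.11% and 7.15% of 10725 genes. In DKO DEN over KO DEN 2 of 45 were higher and 1 lower, against 5.88% of 10727 genes higher and 3.37% lower, with medians of 0.11 and 0.01 and a sum of 0.13. Ifi208 (1.80) and Ifi204 (1.03) were the higher pair, followed by Cmpk2 (0.57, short of the call), and the lowest ratios were those of Oasl2 (-0.85), Slfn5 (-0.52) and Irf1 (-0.31). Without interferon-high cells 4 of 43 were higher and 0 lower, against 5.80% and 3.43% of 10694 genes.

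The other T cell classes are given by their sums. PD-1- non-naive CD8 T cells had summed members of 4263, 4250, 3633 and 3633 CPM in WT young, WT DEN, KO DEN and DKO DEN, with a ratio of -0.23 in KO DEN over WT DEN. The naive-like CD8 T cells had 2824, 3111, 2768 and 2556 CPM, with a ratio of -0.17 there. Conventional CD4 T cells had 4234, 4112, 4323 and 3495 CPM, and in KO DEN over WT DEN their ratio of 0.07 (0.04 to 0.11) was the highest of the 13 classes; without interferon-high cells it was 0.03. Regulatory T cells were compared in DKO DEN over KO DEN only, at 5301 against 5524 CPM, since WT DEN held 46 of them.

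Dendritic cells stood higher in WT DEN than in WT young. In cDC1, the cross-presenting subset, with 194 cells in WT young and 109 in WT DEN, the sum went from 2400 to 3000 CPM (0.32), and 16 of 43 members were called higher and 1 lower, against 6.62% of 8495 genes higher and 4.17% lower, with medians of 0.41 and 0.04. This count depended on the gate and on few cells: with the strict gates 4 of 38 were higher and 4 lower (sum 0.08), against 6.34% and 3.82% of genes, with loose gates 8 and 3 of 44, against 6.14% and 4.11%, and without interferon-high cells 7 and 4 of 37 (sum 0.16), against 6.35% and 4.24%. At 2-fold 8 of 43 were higher, against 1.75%, and with at least 200 UMIs 5 of 21, against 3.72%. Oas1a (1.62), Gbp3 (1.40) and Ddx58 (1.40) had the highest ratios, and Ifi44 (-0.82), Iigp1 (-0.55) and Tgtp1 (-0.38) the lowest. In cDC2, with 53 and 70 cells, the sum went from 3314 to 5247 CPM, a log2 ratio of 0.66 (0.60 to 0.73), and 20 of 36 members were called higher and 2 lower, against 8.15% of 5316 genes higher and 4.48% lower, with medians of 0.66 and 0.04. Of the 20, 15 were among 21 effectors. Without interferon-high cells 6 of 28 were higher and 2 lower, against 7.52% and 4.24% of genes, and the sum was 0.27. At 2-fold 11 of 36 were higher, against 2.03%, and with at least 200 UMIs 8 of 14, against 4.55%; the strict gates left too few of these cells. Rsad2 went from 5.02 to 112 CPM (4.31), Oasl1 had 3.73 and Cmpk2 3.30. All 3 are anchor genes of the interferon-high cells, which numbered 1 in WT young and 2 in WT DEN here; without those cells their ratios were 0.64, 1.34 and 0.31, each from under 50 UMIs. Irf1 went the other way, from 190 to 88.9 CPM (-1.09), with Tgtp2 at -0.73 and Samhd1 at -0.28. The cDC2 marker Mgl2 was at 103 CPM in WT young and 42.8 CPM in WT DEN, and its part was not tested. In KO DEN over WT DEN the cDC2 sum was -0.17, and 0.17 without interferon-high cells.

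Between DKO DEN and KO DEN, 3 classes had at least 30% of their members past the fold in 1 direction. C1q-high macrophages, gated on the complement genes C1qa, C1qb and C1qc, had 92 cells in KO DEN and 279 in DKO DEN and sums of 5884 and 3864 CPM, a ratio of -0.61 (-0.65 to -0.57). Of 44 members 18 were called lower and 1 higher, against 4.28% of 7925 genes lower and 7.36% higher, with medians of -0.50 and 0.03; at 2-fold 5 of 44 were lower, against 0.644% of genes, with at least 200 UMIs 12 of 28, against 1.77%, and with loose gates 12 of 45, against 4.95%. Isg15 went from 311 to 142 CPM (-1.13) and Usp18 from 45.2 to 16.3 CPM (-1.47), and Igtp had -1.14. Iigp1 was higher (1.42), followed by Tgtp2 (0.36) and Gbp2 (0.02). Markers of resident liver macrophages differed widely between the libraries in this class: Vsig4 was at 180, 9.49, 0.766 and 19.5 CPM in WT young, WT DEN, KO DEN and DKO DEN, and Cd5l at 336, 142, 4.597 and 103 CPM. In the other KO DEN cells Vsig4 was at 0.729 CPM, and the part of these differences in the result was not tested. The chemokine gene Cxcl9 in these macrophages was at 65.1 CPM in KO DEN and 244 CPM in DKO DEN.

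In cDC1, with 96 cells in KO DEN and 123 in DKO DEN, the sum went from 2740 to 2055 CPM (-0.42), and 14 of 32 members were called lower and 1 higher, against 3.42% of 7871 genes lower and 3.91% higher, with medians of -0.54 and 0.00. Without interferon-high cells 8 of 30 were lower and 2 higher, against 3.46% and 4.09% of genes, and the sum was -0.24. At 2-fold 8 of 32 were lower, against 0.750%, and with at least 200 UMIs 4 of 16, against 1.36%. Ifit3 went from 35.6 to 4.08 CPM (-3.08), and Ifit2 (-2.10) and Isg20 (-1.97) were the next lowest. Without interferon-high cells, 2 in KO DEN and 1 in DKO DEN, Ifit2 stood at -1.37, and Ifit3 at 0.46 and Isg20 at -1.04 from under 50 UMIs each. Gbp2 (0.94), Ifi203 (0.20) and Oasl2 (0.19) had the highest ratios.

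ILC1, the innate lymphocytes that reside in liver, went the other way. With 318 cells in KO DEN and 552 in DKO DEN, their sum went from 2615 to 3022 CPM, a ratio of 0.21 (0.17 to 0.25), and 13 of 41 members were called higher and 0 lower, against 2.56% of 8799 genes higher and 1.77% lower, with medians of 0.22 and 0.01. Ifit1 went from 11.6 to 46.1 CPM (1.97), Ifit3 had 1.92 and Cmpk2 1.61, and the lowest ratios were those of Gbp3 (-0.29), Slfn5 (-0.23) and Irf1 (-0.11). These values rested in part on few cells: without interferon-high cells, 2 in KO DEN and 10 in DKO DEN, 6 of 39 members were higher and 1 lower, against 2.38% and 1.85% of genes, the sum was 0.07, Ifit1 stood at -0.22 and, from under 50 UMIs each, Ifit3 at 0.52 and Cmpk2 at 1.32, and at 2-fold 6 of 41 were higher, against 0.5001% of genes, and with at least 200 UMIs 4 of 28, against 0.671%.

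Some single cells carried far more interferon-stimulated RNA than the rest. To find them at equal depth, 2000 UMIs were drawn at random from every cell, and a cell was called interferon-high when the draw held at least 3 UMIs of 8 anchor genes, those with values among 9 listed (Ifit1, Ifit2, Ifit3, Ifit3b, Rsad2, Cmpk2, Oasl1 and Usp18). Cells under 2000 UMIs, 667, 540, 358 and 406 in WT young, WT DEN, KO DEN and DKO DEN, were left out. Interferon-high cells made up 198 of 9616 cells in WT young, or 2.06% (1.78 to 2.36), 205 of 7789 in WT DEN, or 2.63% (2.29 to 3.01), 122 of 7466 in KO DEN, or 1.63% (1.36 to 1.95), and 146 of 9444 in DKO DEN, or 1.55% (1.31 to 1.82). The share was highest in WT DEN, where its interval lay apart from those of KO DEN and DKO DEN and overlapped that of WT young. This depended on the limit: with at least 5 anchor UMIs the shares were 1.18%, 1.22% (0.99 to 1.49), 0.924% (0.72 to 1.17) and 0.635% (0.49 to 0.82), so that WT DEN overlapped KO DEN, and with at least 2 they were 3.87%, 5.08%, 3.19% and 3.16%. Without thinning the shares were 7.71%, 13.003%, 9.22% and 8.51%. The limit cuts through a range of counts: 174, 191, 116 and 152 cells had 2 anchor UMIs, just below it, and 59, 79, 32 and 54 had 3. At least 5 were held by 113, 95, 69 and 60 cells. Whether interferon-high cells form a separate type was not tested.

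**Figure D5:**
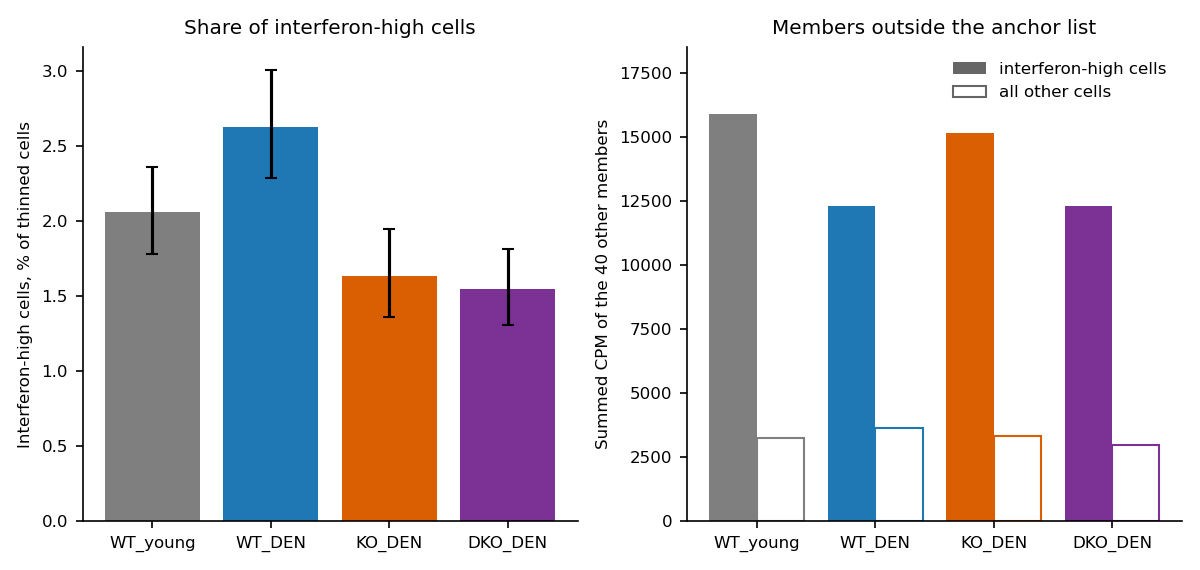
Share of interferon-high cells in each library with its exact 95% binomial interval, and summed level in CPM of the 40 members that are not anchors in interferon-high and in other cells. The share is highest in WT DEN at 2.63%, and the 40 other members are higher in interferon-high cells in all 4 libraries.

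The plot of interferon-high cells also gives the 40 members that played no part in choosing them. They summed to 15874 CPM in interferon-high cells and 3223 CPM in the others in WT young, 12297 and 3639 CPM in WT DEN, 15149 and 3313 CPM in KO DEN, and 12298 and 2973 CPM in DKO DEN. The log2 ratios were 2.30, 1.76, 2.19 and 2.05, and 40, 39, 40 and 40 of the 40 were at least 1.5-fold higher and 0 that much lower. Of all genes tested, 11.2%, 11.4%, 10.8% and 10.7% were higher and 16.4%, 14.8%, 20.3% and 18.0% lower. Median depth differed less, with 7589 against 7011 UMIs in WT young, 8993 against 8622 in WT DEN, 8700 against 8212.5 in KO DEN and 8150.5 against 7794.5 in DKO DEN.

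Isg15 was at 1946, 1503, 1768 and 1507 CPM in the interferon-high cells of WT young, WT DEN, KO DEN and DKO DEN, and at 129, 157, 92.1 and 76.0 CPM in the others. Irf7 was at 825, 618, 883 and 697 CPM against 105, 106, 102 and 90.1 CPM. The step was smaller for Irf1, with log2 ratios of 0.76, 0.50, 1.00 and 0.63. Tgtp1 was low in the miR146-/- libraries inside these cells too: it had 218, 104, 19.5 and 12.3 CPM in interferon-high cells and 27.2, 15.6, 2.32 and 2.25 CPM in the others. Ifi208 had 459, 236, 64.6 and 138 CPM in interferon-high cells. Ifi47, by comparison, had 767, 593, 612 and 550 CPM there, less than 1.5-fold apart, and 229, 214, 105 and 105 CPM in the others.

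By class, interferon-high cells were found among 3 of 93 patrolling monocytes in WT young, or 3.23% (0.67 to 9.14), 13 of 217 in WT DEN, or 5.99% (3.23 to 10.0), 6 of 806 in KO DEN, or 0.744% (0.27 to 1.61), and 5 of 1269 in DKO DEN, or 0.394% (0.13 to 0.92). WT DEN lay above both miR146-/- libraries, with intervals apart. Among PD-1+ CD8 T cells the shares were 4.30%, 1.31%, 1.66% and 2.74%, from 15, 18, 26 and 38 cells, so WT young was highest there. Naive-like CD8 T cells had 1.65%, 4.37%, 2.22% and 1.09%, and PD-1- non-naive CD8 T cells 3.70%, 4.68%, 2.36% and 2.12%. In pDC, whose summed members were the highest, the shares were 1.49%, 1.37%, 0.746% and 0 of 116 cells. Cells with no gate held 91, 92, 34 and 51 of the interferon-high cells.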

How the data were processed

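The authors deposited raw UMI count matrices, 1 per library, made with Cell Ranger 7.0.1 on mm10 according to the submitters' processing notes; the paper's methods name another version, and the notes were followed. Counts were read in Python 3.11.15 with numpy 2.4.6, pandas 2.3.3 and scipy 1.17.1 and plotted with matplotlib 3.10.9. Cells with 600 to 6000 genes and at most 5% mitochondrial UMIs were kept. No doublet caller was run; cells passing more than 1 gate stayed unassigned, and the 6000-gene limit removes the largest. UMIs were summed per library, or per library and class, and scaled to CPM. Log2 ratios used a prior of 0.5 counts and exact intervals. Calls needed 1.5-fold and 50 UMIs over both libraries. TMM factors came from edgeR 4.0.16 in R 4.3.3. Scripts were tested on simulated counts.

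Named were the 12 most abundant members, the 5 highest and 5 lowest ratios per comparison, the 3 highest and 3 lowest within a class, and pathway genes past the fold. The members, gates and gene lists were chosen with earlier results of these data known. Promoters were matched by symbol to RefSeq GRCm38.p6, and 11 of 48 members had no window. Random draws used seed 1. The barcodes that libraries share were counted and left out in turn, and the other alternatives are given with their effect in the closing section.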

Additional observations from a re-analysis of the deposited data

Results flagged for a closer look

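In each comparison the summed interferon-stimulated genes went opposite ways in 2 classes of cells of the same libraries. The 2 classes were picked as the highest and the lowest of those whose counting interval excluded 0. Of 11, 13 and 14 classes compared, intervals excluded 0 upwards in 6, 1 and 2 and downwards in 3, 10 and 11. For WT DEN over WT young the log2 ratio was 0.66 (0.60 to 0.73) in cDC2 and -0.28 (-0.30 to -0.25) in PD-1+ CD8 T cells. Without interferon-high cells these values were 0.27 and -0.10. For KO DEN over WT DEN it was 0.072 (0.036 to 0.11) in conventional CD4 T cells and -0.83 (-0.86 to -0.81) in patrolling monocytes, and 0.03 and -0.77 without interferon-high cells. For DKO DEN over KO DEN it was 0.21 (0.17 to 0.25) in ILC1 and -0.61 (-0.65 to -0.57) in C1q-high macrophages, and 0.07 and -0.59 without interferon-high cells. With 1 library per group, the difference between the classes was not tested in any of the 3 comparisons.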

How the results depend on the processing

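Each result was computed again under other settings, and the cause of a change was not tested except where the setting itself shows it. For the sum over all cells, all 27 values kept their direction. WT DEN over WT young (0.15) was 0.17 with no cell filter, 0.17 with TMM factors, 0.10 as a mean of per-cell CPM, 0.052 without Ifi27l2a, 0.11 with cells thinned to 2000 UMIs, 0.18 without interferon-high cells and 0.21 without the members on chromosome 11. KO DEN over WT DEN (-0.14) was -0.15 as a mean of per-cell CPM, -0.13 with TMM factors, -0.15 without Ifi27l2a, -0.15 thinned and -0.079 without chromosome 11. DKO DEN over KO DEN (-0.18) was -0.14 as a mean of per-cell CPM, -0.13 with TMM factors, -0.14 without Ifi27l2a, -0.16 thinned and -0.15 without interferon-high cells.

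The mean over classes kept its direction in 21 of 21 values. WT DEN over WT young (0.11) was 0.0054 with strict gates, which left out cDC2, 0.077 without Ifi27l2a, 0.13 without chromosome 11 and 0.065 without interferon-high cells. KO DEN over WT DEN (-0.21) was -0.15 with strict gates, which left out classical monocytes, -0.16 without chromosome 11 and -0.16 without interferon-high cells. DKO DEN over KO DEN (-0.15) was -0.16 with strict gates, -0.13 with TMM factors, -0.12 without Ifi27l2a and -0.13 without interferon-high cells. The settings without interferon-high cells and without chromosome 11 were chosen after seeing the data.

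The shares of all genes stand beside these counts in the report. At 2-fold the members called over all cells went from 5 to 2 higher and 2 to 0 lower in WT DEN over WT young, from 6 to 2 lower in KO DEN over WT DEN, and from 1 to 0 higher and 1 to 0 lower in DKO DEN over KO DEN. Without interferon-high cells, 10 were higher in WT DEN over WT young and 2 in DKO DEN over KO DEN, and with no cell filter 2 were lower in the latter. The share of interferon-high cells in WT young, WT DEN, KO DEN and DKO DEN was 7.71%, 13.003%, 9.22% and 8.51% with no thinning, 3.87%, 5.08%, 3.19% and 3.16% for at least 2 anchor UMIs and 1.18%, 1.22%, 0.924% and 0.635% for at least 5.

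The sums and genes whose interval excluded 0 and that changed sign were these. The sum in conventional CD4 T cells, WT DEN over WT young (-0.04), was 0.0098 with strict gates, 0.0115 without chromosome 11 and 0.026 without interferon-high cells, and that in B cells was -0.0011 with TMM factors. For KO DEN over WT DEN, the cDC1 sum (-0.13) was 0.13 with strict gates and 0.0117 without interferon-high cells, and the cDC2 sum (-0.17) was 0.17 without them. For DKO DEN over KO DEN, the B-cell sum (-0.11) was 0.045 and Samhd1 (-0.03) was 0.029 with TMM factors, and the classical monocyte sum (-0.12) was 0.056 without Ifi27l2a. Of 264 values of class sums 247 kept their direction, as did 148 of 150 values of named members; the others that crossed 0 had an interval that held 0. Of the class counts, 53 of 78 stayed within 1.5 times, 25 were weaker by more than that and 0 were stronger. At 2-fold 0 of 10 stayed within that limit, with at least 200 UMIs 2 of 10, and without interferon-high cells 5 of 10.

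No paired analysis was possible because each group had 1 library and the labels give no replicate numbers. The rare classes hold few cells, so that a few cells rich in interferon-stimulated RNA can weigh heavily there. No difference has a replicate check, and age, DEN and diet change together between WT young and WT DEN.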
